A study of Danio rerio with 14 samples.

Results

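The genes described are 8 nucleotide excision and mismatch repair genes, xpc, ddb1, ddb2, ercc6, ercc2, ercc3, xpa and msh6, in zebrafish embryos at 5.5 hours after fertilization, the onset of gastrulation. They were chosen by name as members of the pathways, with earlier results of these data known. Each matched exactly 1 row by symbol in each of the 3 deposited comparison tables. The tables together list 14077 genes. All parents were AB wild type fish. Embryos of the first brood (0 yr) were collected 1 month after the parents' exposure. They came from parents exposed to gamma radiation during gametogenesis at 53 mGy/h (3 libraries), from parents exposed at 8.7 mGy/h (3 libraries) and from unexposed parents (2 libraries, as 1 control sample was lost during RNA extraction). Embryos of the second brood (1 yr) came from the 8.7 mGy/h parents (3 libraries) and from unexposed parents (3 libraries), bred again after a year. The embryos themselves were not irradiated, each library was made from a pool of 100 embryos, and the labels do not say whether the pools of a group came from separate clutches.

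Nucleotide excision repair removes bulky, helix-distorting lesions such as ultraviolet photoproducts. In the global genome branch the XPC complex and the UV-DDB dimer of DDB1 and DDB2 find the damage, and in the transcription-coupled branch CSB (ercc6) acts where an RNA polymerase has stalled. Both branches then recruit TFIIH, whose helicases XPB (ercc3) and XPD (ercc2) open the DNA, XPA, which verifies the lesion, and nucleases that cut out the damaged strand. Mismatch repair corrects replication errors, and MSH6 is part of a protein complex that recognizes mispaired bases. These roles are known mostly from human and mouse proteins. Early zebrafish embryos start with mRNA stored in the egg and replace it by zygotic transcripts around the blastula stage.

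Values are the authors' group levels in RPM, reads scaled to library size, with 1 value per group and no spread between libraries. The log2 difference is the authors' log2 RPM of the exposed group minus that of its control. A gene was called changed where the false discovery rate (FDR, the adjusted p-value) in the authors' deposited table was under 0.05. The low group values resolved into products of whole reads and gave a geometric mean depth of at least 22.6 to 27.7 M reads (megareads) per library, by group. From this depth a counting standard error was computed for each log2 difference. It covers the sampling of reads alone and not the spread between embryo pools. RPM is not scaled to transcript length, so levels are compared within a gene and not between genes. In whole embryos, fewer cells of a type and less RNA per cell cannot be told apart.

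The markers of stage moved with the comparisons. Of 9 zygotic genes of the early gastrula 8 were listed, and their summed level was 942 RPM in the 0 yr control, 979 RPM at 8.7 mGy/h and 167 RPM at 53 mGy/h, and at 1 yr 1387 RPM in the control and 1654 RPM at 8.7 mGy/h. Of 5 maternal genes 3 were listed, and these summed to 100.3, 126 and 380.2 RPM in the 0 yr groups in the same order and to 114 and 72.8 RPM at 1 yr, mostly through buc. Single zygotic genes did not all follow their sum. Between the 0 yr and 1 yr controls mxtx2 (46.7 and 8.58 RPM), chd and vox were lower at 1 yr, while gsc, tbx16, sox3, ved and eve1 were higher. Within the 1 yr brood gsc was slightly lower in the exposed group (21.3 and 20.1 RPM), and the other listed zygotic genes were higher. None of 8 markers of later or adult tissue was listed. The part of these shifts in the results on repair genes was not tested.

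Of the 8 genes, ercc6 and ddb2 fell at 53 mGy/h, no gene was called at 8.7 mGy/h in the 0 yr brood, and at 8.7 mGy/h in the 1 yr brood ercc6 rose and msh6 fell. These were 2 of 8 genes at 53 mGy/h, where 43.6% of all 13714 listed genes were called and 21.5% were called lower. At 1 yr it was again 2 of 8, where 42.4% of 12502 genes were called, 20.0% higher and 22.4% lower. At 8.7 mGy/h, 0 yr the count of 0 stood beside 0.294% of 13263 genes, and the deposited table gives no unadjusted p. With so few genes, no difference from these shares is read. The median log2 difference of the 8 genes was 0.06 at 53 mGy/h beside 0.12 over all genes, -0.14 beside -0.04 at 8.7 mGy/h in the 0 yr brood, and -0.04 beside -0.09 at 1 yr. The median of all genes at 53 mGy/h lay 0.12 above 0. Relative to it the differences there were -0.22 for xpc, -0.03 for ddb1, 0.01 for ercc2, -0.09 for ercc3 and 0.13 for msh6. Those of ercc6, ddb2 and xpa are given with each gene. The 2 comparisons at 0 yr share their control libraries.

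**Figure D1:**
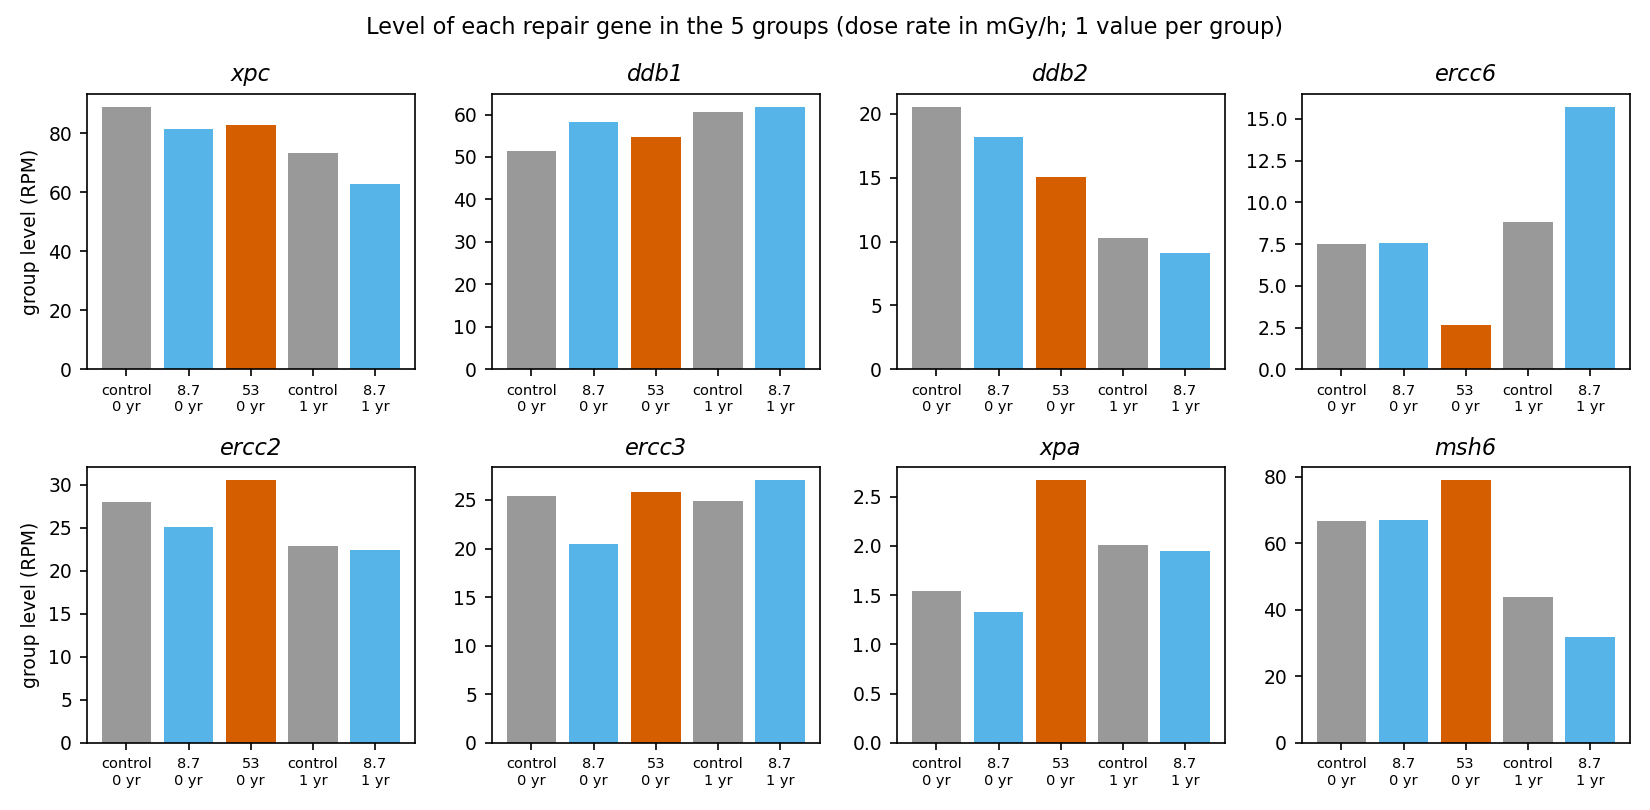
Level of each of the 8 repair genes in RPM (bar height, axis from 0, scaled separately for each gene) in the 5 groups, with 1 authors' value per group and no error bar because library values were not analysed here. The bar of ercc6 is lowest at 53 mGy/h (2.63 RPM) and highest at 8.7 mGy/h, 1 yr (15.7 RPM), and ddb2 and msh6 are lowest in the 1 yr brood.

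The gene for the CSB protein, ercc6 (ENSDARG00000075612, chromosome 13 from 30743721 to 30779522 in GRCz10, plus strand), differed most across the groups. CSB is a chromatin remodeller of the SWI2/SNF2 family that binds stalled RNA polymerase, and its loss causes Cockayne syndrome in humans. Its level was 7.52 RPM in the 0 yr control, 7.55 RPM at 8.7 mGy/h, 0 yr and 2.63 RPM at 53 mGy/h, 0 yr. In the 1 yr brood it was 8.81 RPM in the control and 15.7 RPM at 8.7 mGy/h. The 0 yr control and the 8.7 mGy/h group were thus nearly level, while the 53 mGy/h group was far below both.

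At 53 mGy/h ercc6 was 2.86-fold lower than in the control (log2 difference -1.52, counting standard error 0.12, FDR 1.77e-07), or -1.63 relative to the median gene and -1.09 relative to the ribosomal protein genes. Of all genes at 53 mGy/h, 9.41% had a log2 difference as low or lower. The read numbers behind it were about 208 per library in the control and 71.7 at 53 mGy/h. At 8.7 mGy/h, 0 yr the log2 difference was 0.01 (counting standard error 0.09, FDR 0.996). At 1 yr ercc6 rose 1.78-fold (log2 difference 0.84, counting standard error 0.07, FDR 1.18e-08), and 1.94% of all genes had a difference as high or higher. Against the ribosomal protein genes the 1 yr difference was 0.62. The direct difference between 53 and 8.7 mGy/h in the 0 yr brood, in which the control does not enter, was -1.52 (counting standard error 0.12), and no test of it could be made.

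**Figure D2:**
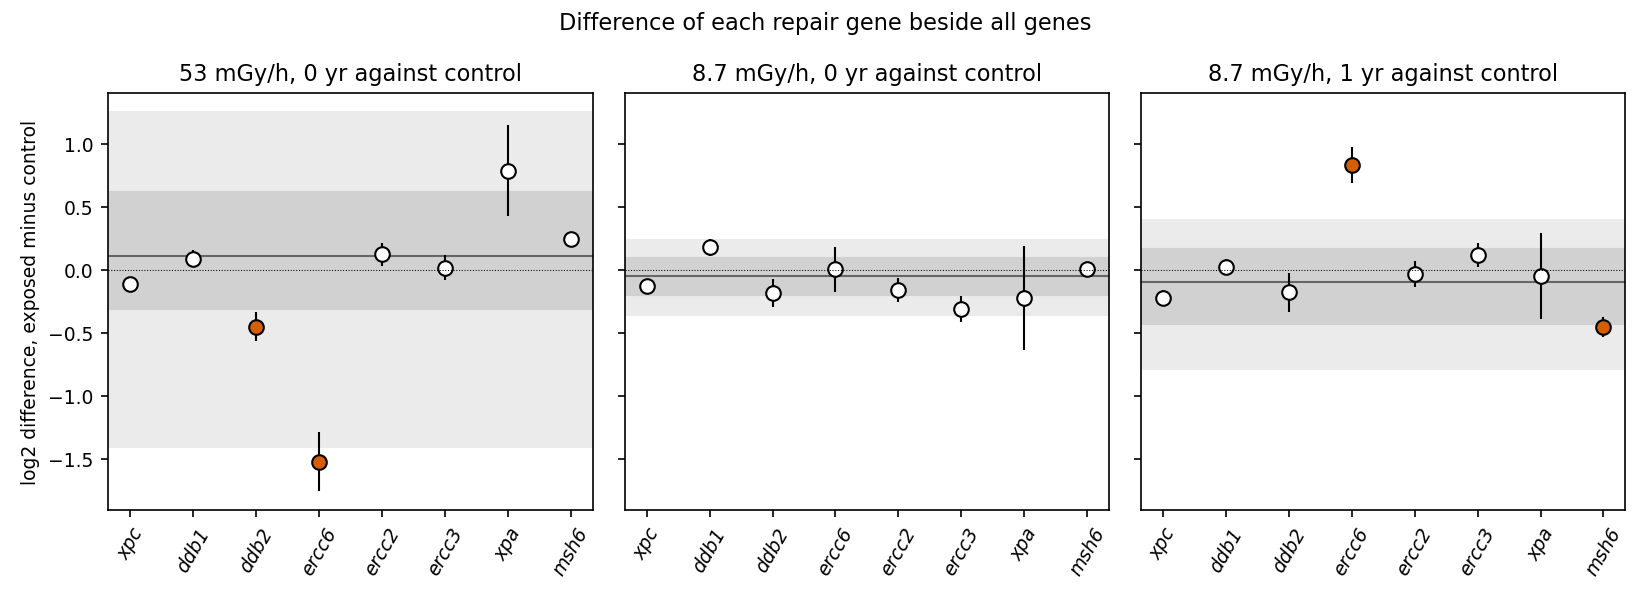
Log2 difference (exposed minus control) of the 8 genes in the 3 comparisons. Points are filled where the authors' FDR is under 0.05, bars are 95% intervals for counting error only, and the dark and light bands hold the middle 50% and 80% of all genes around their median line. At 53 mGy/h ercc6 (-1.52) lies below the light band, and at 8.7 mGy/h, 1 yr it lies above it (0.84).

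Other genes of transcription-coupled recognition were not called in any comparison. The WD40 protein gene ercc8 (CSA), which works with CSB, stood at 6.94 and 8.0 RPM in control and 53 mGy/h embryos and at 6.98 and 5.44 RPM in the control and exposed embryos of the 1 yr brood. The gap between the log2 differences of ercc6 and ercc8 was -1.72 (counting standard error 0.15) at 53 mGy/h and 1.20 (0.12) at 1 yr, untested. The gene uvssa, whose product joins the CSB complex, was at 1.64 and 1.75 RPM and at 1.23 and 1.34 RPM in the same pairs, with few reads. The genes xab2, usp7 and elof1 had log2 differences between -0.16 and 0.18 in the 3 comparisons.

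In the global genome branch ddb2 fell at 53 mGy/h, and xpc and ddb1 were not called in any comparison. The gene ddb2 (ENSDARG00000041140, chromosome 18 from 20479091 to 20490268, plus strand) encodes the damage-binding subunit of UV-DDB and is a p53 target in human cells. Its level was 20.6 RPM in the 0 yr control, 18.2 RPM at 8.7 mGy/h, 0 yr and 15.1 RPM at 53 mGy/h. In the 1 yr brood it was 10.3 RPM in the control and 9.13 RPM at 8.7 mGy/h. The exposed group was below its control in all 3 comparisons.

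The level of ddb2 at 53 mGy/h was 1.36-fold lower than in the control (log2 difference -0.45, counting standard error 0.06, FDR 0.00807), or -0.56 relative to the median gene. Of all genes at 53 mGy/h, 20.7% had a difference as low or lower. Measured against the ribosomal protein genes, whose own median log2 difference was -0.42 at 53 mGy/h, ddb2 differed by -0.02. The 8.7 mGy/h differences of -0.18 at 0 yr (FDR 0.996) and -0.18 at 1 yr (FDR 0.656) were not called. Between the controls of the 2 broods ddb2 was lower at 1 yr (log2 difference -0.996, counting standard error 0.07), beside a median of -0.20 over all genes. The exposed 8.7 mGy/h groups gave -0.99 (0.07), beside -0.33. The broods stand in separate tables and differ in parental age and collection time, so these differences carry no test.

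The gene for the other UV-DDB subunit, ddb1 (ENSDARG00000074431, chromosome 18 from 50803251 to 50808967, plus strand), also serves as the adaptor of CUL4 ubiquitin ligases. In RPM as deposited it had the smallest range of the 8 genes over the 5 groups. Its level was 51.5, 58.3 and 54.8 RPM in the 0 yr control, the 8.7 mGy/h group and the 53 mGy/h group, and 60.7 and 61.9 RPM in the control and exposed groups at 1 yr. The highest group was 1.20-fold above the lowest, and the FDR was at least 0.228. Against the ribosomal protein genes ddb1 differed by 0.51 at 53 mGy/h, 0.08 at 8.7 mGy/h, 0 yr and -0.19 at 1 yr. Between the controls ddb1 was higher at 1 yr (log2 difference 0.24, counting standard error 0.04), beside a median of -0.20 over all genes. The ranking of the genes by range was not worked out in other scalings. The log2 difference of ddb1 exceeded that of ddb2 by 0.54 (counting standard error 0.07) at 53 mGy/h, by 0.36 (0.07) at 8.7 mGy/h, 0 yr and by 0.20 (0.08) at 1 yr. These differences between the subunits were not tested against library spread.

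The gene xpc (ENSDARG00000039754, chromosome 8 from 25988851 to 26011811, plus strand) encodes the damage sensor of the global genome branch. Its level was 89.1 RPM in the 0 yr control, 81.6 RPM at 8.7 mGy/h, 0 yr and 82.8 RPM at 53 mGy/h, and at 1 yr 73.2 RPM in the control and 63.0 RPM at 8.7 mGy/h. Each exposed group was below its control, with log2 differences of -0.13 and -0.11 for the 8.7 and 53 mGy/h groups of the 0 yr brood and -0.22 at 1 yr. The counting standard error was 0.03 in each, and the FDR was 0.996, 0.14 and 0.186. Against the ribosomal protein genes the xpc difference at 53 mGy/h was 0.32, so its sign there depends on the scaling.

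Partners of these sensors moved unevenly. The adaptor gene rad23aa, one of the genes for the RAD23 partners that stabilize XPC, fell from 12.8 to 8.58 RPM at 53 mGy/h (FDR 0.0133) and rose from 15.6 to 18.6 RPM at 1 yr (FDR 0.00704). Against the ribosomal protein genes these log2 differences of -0.57 and 0.25 shrank to -0.15 and 0.03. Its duplicate rad23ab stood at 13.7 and 16.5 RPM at 53 mGy/h (FDR 0.584), and rad23b at 235 and 240.2 RPM (FDR 0.663). At 1 yr rad23b was called higher at 276 and 291 RPM (FDR 0.0424). Its log2 difference was 0.08 as deposited, 0.17 relative to the median gene and -0.14 against the ribosomal protein genes. The centrin genes cetn3 and cetn4 were not called in any comparison, and cetn2 was not listed.

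The 2 cullin genes that build the ligase around DDB1 moved in opposite directions. The gene cul4b rose from 102 to 165 RPM at 53 mGy/h (FDR 0.000339) and fell from 88.9 to 67.6 RPM at 1 yr (FDR 0.000304). In contrast, cul4a fell from 14.2 to 10.3 RPM at 53 mGy/h (FDR 0.00523) and rose from 7.27 to 10.1 RPM at 1 yr (FDR 0.000975). At 8.7 mGy/h, 0 yr both were below the control and not called. The log2 difference there was -0.44 for cul4a (14.2 to 10.5 RPM, FDR 0.905) and -0.21 for cul4b (102 to 87.9 RPM, FDR 0.985). The log2 difference of cul4b minus that of cul4a was 1.16 (counting standard error 0.08) at 53 mGy/h, 0.23 (0.08) at 8.7 mGy/h, 0 yr and -0.87 (0.09) at 1 yr. It was not tested against library spread, and as a contrast of 2 genes in the same groups it does not depend on the scaling. The values of each gene do, and against the ribosomal protein genes cul4a differed by -0.04 at 53 mGy/h (-0.46 as deposited) and by 0.26 at 1 yr (0.47 as deposited). In the same scaling cul4b differed by 1.13 at 53 mGy/h (0.70 as deposited) and by -0.61 at 1 yr (-0.40 as deposited). The RING subunit gene rbx1 was not called.

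The helicase genes of TFIIH, ercc2 and ercc3, were not called in any comparison. TFIIH is also a general transcription factor, so both genes serve transcription as well as repair. The level of ercc2 (ENSDARG00000021985, chromosome 15 from 23744753 to 23757094, minus strand), which encodes XPD, was 28.0, 25.1 and 30.6 RPM in the 0 yr control, 8.7 mGy/h and 53 mGy/h groups and 22.9 and 22.4 RPM at 1 yr. Its log2 differences were -0.16 and 0.13 for the 8.7 and 53 mGy/h groups of the 0 yr brood and -0.03 at 1 yr, with an FDR of at least 0.657.

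The level of ercc3 (ENSDARG00000002402, chromosome 6 from 9359875 to 9394542, minus strand), which encodes XPB, was 25.4, 20.5 and 25.8 RPM in the 0 yr groups in the same order and 24.9 and 27.0 RPM at 1 yr. The 8.7 mGy/h group of the 0 yr brood was the lowest. Its log2 difference of -0.31 was the furthest from 0 of the 8 genes in that comparison, with a counting standard error of 0.05 and an FDR of 0.945. At 1 yr the difference was 0.12 with an FDR of 0.0563, just outside the threshold. Against the ribosomal protein genes the 1 yr difference of ercc3 was -0.10, so its sign depends on the scaling.

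Among the other 8 TFIIH genes, gtf2h1 stood apart at 53 mGy/h. The gene gtf2h1, whose human counterpart p62 contacts XPC, rose 4.24-fold from 12.1 to 51.2 RPM (log2 difference 2.08, counting standard error 0.06, FDR 1.36e-33) and fell from 16.3 to 10.3 RPM at 1 yr (log2 difference -0.66, counting standard error 0.07, FDR 0.000129). The remaining 9 subunits, ercc2 and ercc3 included, had log2 differences between -0.65 and 0.39 at 53 mGy/h and between -0.26 and 0.25 at 1 yr. Of these, gtf2h2 was called lower at 53 mGy/h (14.8 to 11.7 RPM, FDR 0.021) and higher at 1 yr (18.8 to 22.4 RPM, FDR 0.00452), but against the ribosomal protein genes its log2 difference turned from -0.34 to 0.08 at 53 mGy/h and shrank from 0.25 to 0.03 at 1 yr. The kinase gene cdk7 fell at 53 mGy/h (12.6 to 8.02 RPM, FDR 0.001), with a log2 difference of -0.65 as deposited and -0.23 against the ribosomal protein genes. At 8.7 mGy/h, 0 yr gtf2h1 was at 12.1 and 14.4 RPM (FDR 0.922).

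**Figure D3:**
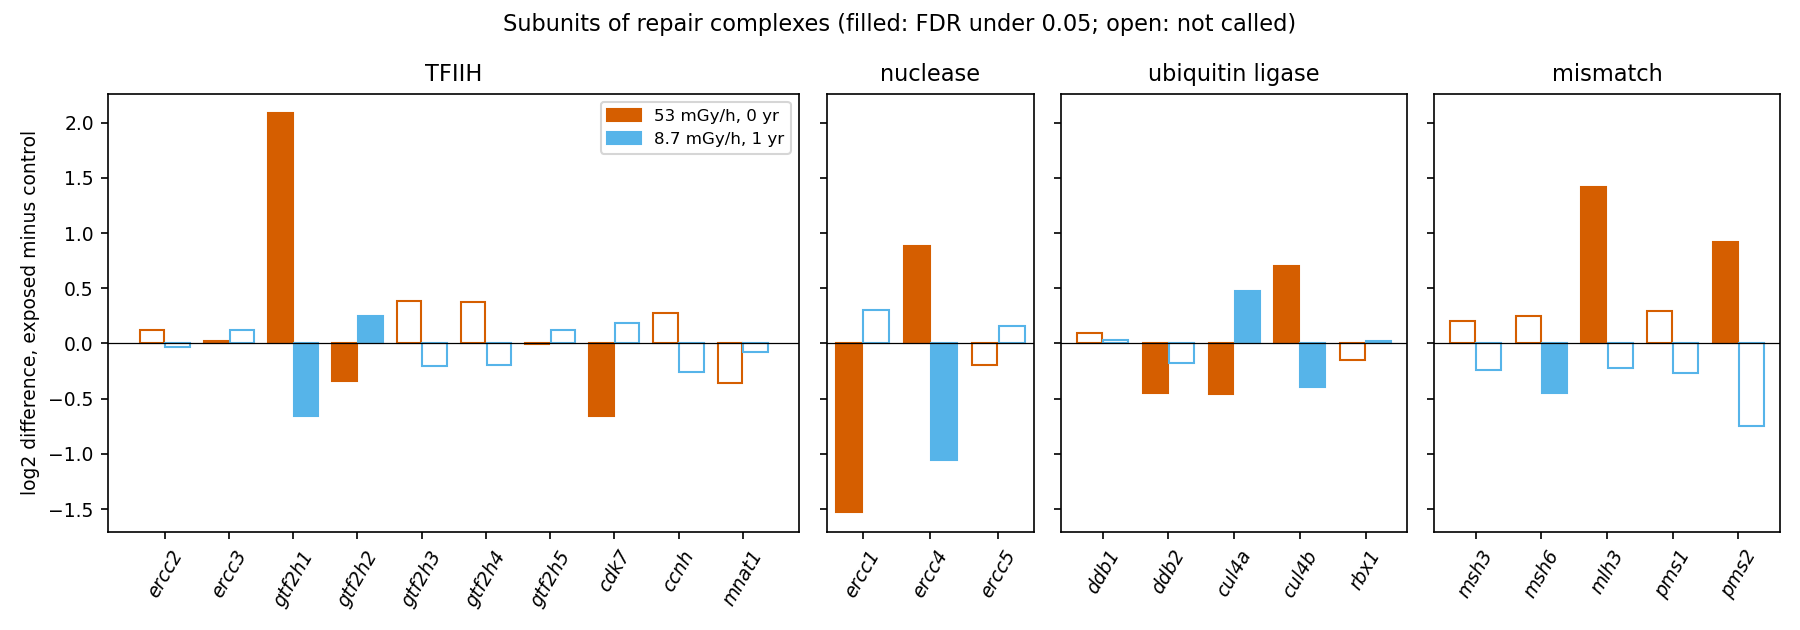
Log2 difference (exposed minus control) of the subunit genes of TFIIH, the excision nucleases, the CUL4-DDB ligase and mismatch repair, at 53 mGy/h, 0 yr (orange) and 8.7 mGy/h, 1 yr (blue). Filled bars have an FDR under 0.05, and bars too short to show their fill (ercc3, gtf2h5, ddb1 and rbx1) were not called. The bars of gtf2h1 (2.08 and -0.66), ercc1 and ercc4 (-1.53 and 0.89 at 53 mGy/h) and cul4a and cul4b point in opposite directions within their complexes or across the comparisons.

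The scaffold gene xpa (ENSDARG00000038114, chromosome 1 from 11382000 to 11411018, plus strand) had the fewest reads of the 8 genes. XPA binds the opened DNA and positions the nucleases. Its level was 1.54 RPM in the 0 yr control, 1.33 RPM at 8.7 mGy/h, 0 yr and 2.67 RPM at 53 mGy/h, and 2.01 and 1.95 RPM in the control and exposed groups at 1 yr. The 53 mGy/h group was the highest, with about 72.8 reads per library beside 42.8 in the control. The log2 difference was 0.79 (counting standard error 0.18), or 0.67 relative to the median gene, and was not called (FDR 0.111). At 8.7 mGy/h it was -0.22 (0.21) at 0 yr and -0.04 (0.17) at 1 yr, both about the size of the counting error or below it.

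Of the RPA subunits that work beside XPA, rpa1 was called in 2 comparisons. RPA coats the undamaged strand, and its large subunit gene rpa1 fell from 48.6 to 29.7 RPM at 53 mGy/h (FDR 0.000277) and was called higher at 1 yr (43.1 to 48.9 RPM, FDR 0.00442). At 1 yr rpa2 was also called higher (34.7 to 40.4 RPM, FDR 0.0054). Against the ribosomal protein genes both 1 yr differences came close to 0 (-0.04 for rpa1 and -0.0009 for rpa2), within the counting standard error of 0.04 of each. In the same scaling the 53 mGy/h difference of rpa1 shrank from -0.71 to -0.29. At 53 mGy/h rpa2 (-0.05) was not called, and rpa3 was not called in any comparison.

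The genes of the heterodimeric nuclease that cuts 5′ of the lesion went apart at 53 mGy/h. The gene ercc1, for the DNA-binding subunit, fell 2.89-fold from 2.83 to 0.98 RPM (log2 difference -1.53, counting standard error 0.20, FDR 0.000971). The gene ercc4, for the catalytic subunit XPF, rose 1.85-fold from 10.7 to 19.8 RPM (log2 difference 0.89, counting standard error 0.07, FDR 4.31e-05). At 1 yr ercc4 fell 2.08-fold from 6.97 to 3.36 RPM (FDR 0.00012), and ercc1 stood at 3.15 and 3.89 RPM (FDR 0.222). The log2 difference of ercc4 minus that of ercc1 was 2.41 (counting standard error 0.21) at 53 mGy/h, -0.50 (0.17) at 8.7 mGy/h, 0 yr and -1.36 (0.17) at 1 yr, with no test against library spread. The gene ercc5 (XPG), which cuts on the other side of the lesion, was not called in any comparison.

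The mismatch recognition gene msh6 (ENSDARG00000104541, chromosome 13 from 48067437 to 48090025, plus strand) fell at 1 yr. Its level was 66.7 RPM in the 0 yr control, 67.0 RPM at 8.7 mGy/h, 0 yr and 79.0 RPM at 53 mGy/h, and at 1 yr 43.7 RPM in the control and 32.0 RPM at 8.7 mGy/h. The 1 yr groups were both below every 0 yr group. At 1 yr the exposed level was 1.37-fold lower (log2 difference -0.45, counting standard error 0.04, FDR 0.00202), and 23.8% of all genes had a difference as low or lower. Against the ribosomal protein genes the 1 yr difference of msh6 was -0.67. At 53 mGy/h the difference of 0.24 (counting standard error 0.03) was not called (FDR 0.507), and at 8.7 mGy/h, 0 yr it was 0.01 (FDR 0.996).

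Between the controls msh6 was lower at 1 yr (log2 difference -0.61, counting standard error 0.04), beside a median of -0.20 over all genes. Its 3′ end overlaps fbxo11a on the opposite strand by 21 bases in the deposited coordinates, and the libraries do not mark strand. The level of fbxo11a at 1 yr was 52.9 and 45.2 RPM (FDR 0.172), and it was called higher at 53 mGy/h (43.8 to 92.1 RPM, FDR 6.6e-09). None of the other 7 genes overlapped another listed gene.

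Among other mismatch repair genes, msh3, which encodes another mismatch sensor, stood at 26.0 and 29.9 RPM at 53 mGy/h (FDR 0.716) and at 24.5 and 20.7 RPM at 1 yr (FDR 0.233). The MutL genes mlh3 (3.04 to 8.12 RPM, FDR 0.000146) and pms2 (2.90 to 5.48 RPM, FDR 0.0161), whose products act after recognition, rose at 53 mGy/h. At 1 yr mlh3 was at 2.33 and 2.00 RPM (FDR 0.645) and pms2 at 1.52 and 0.91 RPM (FDR 0.128). The exonuclease gene exo1 fell at 1 yr (25.2 to 19.1 RPM, FDR 0.0137) and was at 32.2 and 43.6 RPM at 53 mGy/h (FDR 0.0856).

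Over a wider list of 60 excision and mismatch repair genes, 58 were listed in the tables, the 8 genes included. At 53 mGy/h 8 rose and 14 fell, with a median log2 difference of 0.01 beside 0.12 over all genes, and 37.9% were called where 43.6% of all genes were (22.1% higher, 21.5% lower). At 1 yr 13 rose and 8 fell, with a median of 0.02 beside -0.09 over all genes. Of the list 36.2% were called beside 42.4% of all genes (20.0% higher, 22.4% lower). At 8.7 mGy/h, 0 yr none of 58 was called, where 0.294% of all 13263 genes were, so this count says little about the repair genes. Differences there ran from -0.47 (uvssa) to 0.50 (pold2), and the median was -0.06 beside -0.04 over all genes. Against the ribosomal protein genes the split by sign became 11 higher and 11 lower at 53 mGy/h, where gtf2h2, lig1 and pcna changed sign. At 1 yr it became 10 higher and 11 lower, where rad23b, rpa1 and rpa2 did. Of these, pcna (0.01), rpa1 (-0.04) and rpa2 (-0.0009) came so close to 0 that their sign says little. Genes called higher at 53 mGy/h or lower at 1 yr moved further from 0, such as rfc1 (2.38 to 2.80 at 53 mGy/h) and ercc4 (-1.05 to -1.27 at 1 yr).

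Of the genes of gap filling and ligation, 3 rose and 5 fell of 16 at 53 mGy/h, and 5 rose and 3 fell at 1 yr. Over all genes 22.1% were called higher and 21.5% lower at 53 mGy/h, and 20.0% higher and 22.4% lower at 1 yr. With only 16 genes, no difference from these shares is read. Most genes of this step also serve replication. The clamp loader gene rfc1 rose 5.20-fold from 11.1 to 57.7 RPM at 53 mGy/h (FDR 9.43e-25), and fell from 15.7 to 8.92 RPM at 1 yr (FDR 2.29e-05). The other loader genes, rfc2 to rfc5, were not called in any comparison. The polymerase subunit genes pold2 (7.19 to 15.0 RPM, FDR 9.52e-05) and POLE2 (29.8 to 60.9 RPM, FDR 9.88e-09) rose at 53 mGy/h, while pole, for the catalytic subunit of polymerase epsilon, fell from 20.3 to 11.5 RPM (FDR 8.86e-07). The ligase gene lig3 fell from 74.5 to 49.4 RPM at 53 mGy/h (FDR 7.31e-06) and was called higher at 1 yr (84.6 to 103 RPM, FDR 1.08e-06), and its partner gene xrcc1 was called in the same directions (FDR 0.00167 and 0.000825). Against the ribosomal protein genes the log2 difference of lig3 shrank from -0.59 to -0.17 at 53 mGy/h and from 0.28 to 0.06 at 1 yr. That of xrcc1 shrank from -0.56 to -0.13 and from 0.28 to 0.06, and that of pole at 53 mGy/h from -0.82 to -0.39.

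**Figure D4:**
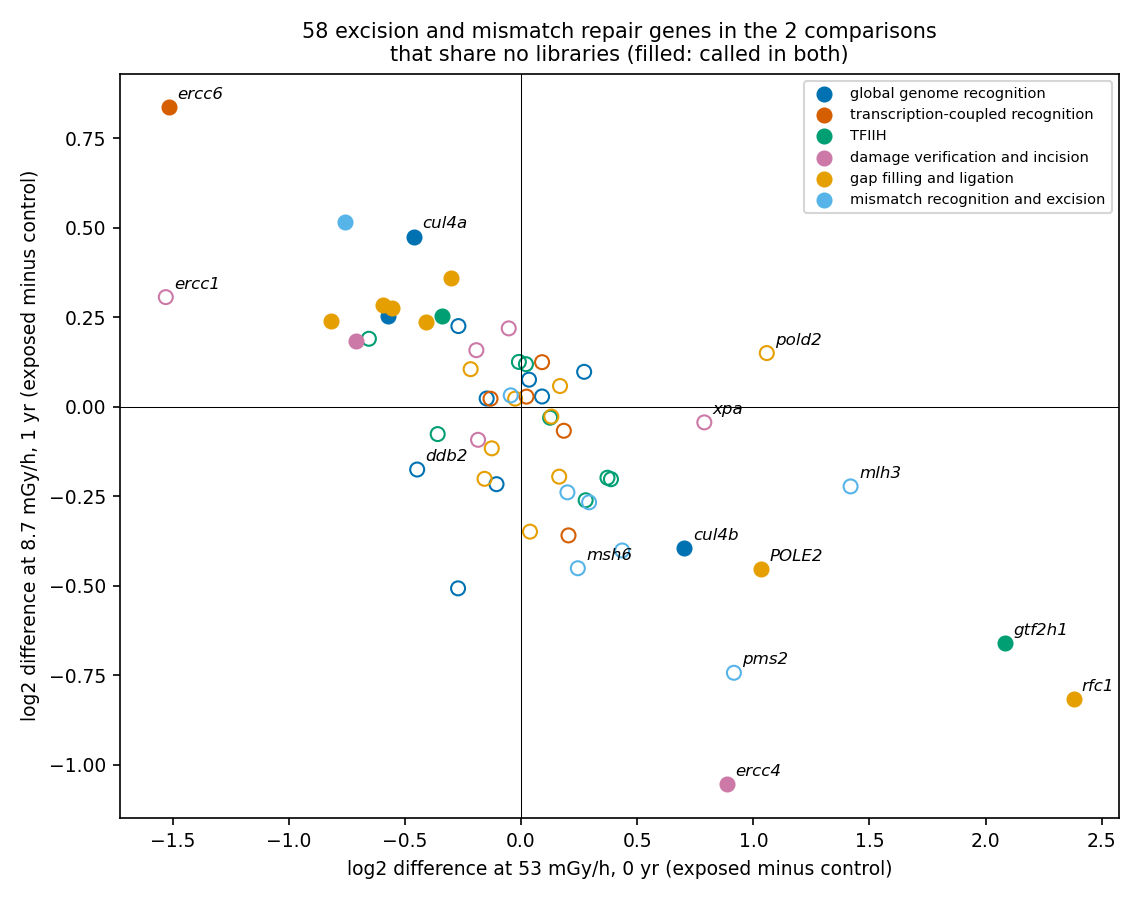
Log2 difference (exposed minus control) of 58 repair genes at 53 mGy/h, 0 yr (horizontal) and 8.7 mGy/h, 1 yr (vertical), coloured by step of the pathway and filled where a gene was called in both. In the deposited scaling the 16 filled points lie in the upper left and lower right, with ercc6 at the far upper left (-1.52 and 0.84) and rfc1 (2.38 and -0.82) and gtf2h1 at the far right.

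The 53 mGy/h comparison at 0 yr and the 8.7 mGy/h comparison at 1 yr share no libraries. Of the listed repair genes 22 were called in the first and 21 in the second, and 16 in both, which is 72.7% and 76.2% of each. In the deposited scaling all 16 had opposite directions, 11 lower and then higher, among them ercc6, and 5 higher and then lower, which were cul4b, gtf2h1, ercc4, rfc1 and POLE2. Against the ribosomal protein genes gtf2h2, lig1, pcna and rpa1 no longer had opposite directions, with pcna close to 0 in both (0.01 and 0.02). Over all 12154 genes found in both tables, 3144 were called in both, 57.2% and 61.4% of each. Of these, 97.6% had opposite directions in the deposited scaling, and the share against the ribosomal protein genes was not computed. In the deposited scaling the repair genes thus followed a contrast seen across the whole tables. Of the 8 genes themselves, ercc6 was called in both, ddb2 at 53 mGy/h alone and msh6 at 1 yr alone, and whether the responses of ddb2 and msh6 differ between the comparisons was not tested.

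The genes most like each repair gene over the 5 groups were found by the Euclidean distance between log2 levels centred on each gene's mean, among 9861 genes with a name and at least 1 RPM on average. For ercc6 these were ier2, an immediate early response gene (distance 0.12; 7.21, 7.70, 2.80, 9.02 and 15.3 RPM in the 0 yr control, 8.7 and 53 mGy/h groups and the 1 yr control and exposed groups), and foxp2, a forkhead factor gene (0.20). For ddb2 they were fmn2b (0.10) and hddc2 (0.12), and for msh6 ap1s3b (0.04) and tgfb3 (0.05). The nearest to xpc were pargl and prpf4 (0.06 each), to ddb1, among those reported, pfdn1 (0.03), to ercc2 nrde2 and uhrf1 (0.07 each), to ercc3 eef1db (0.08) and ddx26b (0.10), and to xpa setd5 and nipbla (0.16 each). With 5 points per gene and so many candidates, close neighbours are found for nearly any profile.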

How the data were processed

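The submitters' processing notes name FastQC 0.11.5, Trim Galore 0.4.2, STAR 2.5.2b, DESeq2 and the build GRCz10, with no roles or settings. The authors deposited 3 tables with group values in RPM and log2 RPM, a linear ratio, a signed fold change (a score) and an FDR (adjusted p-value), per the file headers. Which test gave the FDR, over which genes it was adjusted and how levels were scaled for it are not given in the sources used here. At 1 yr rpa3 had an FDR of 0.993 at a log2 difference of -0.09, close to the median of all genes. The FDR and the log2 difference may thus be centred differently. As no library values were analysed here, the planned count tests could not be run, and the authors' FDR was used.

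Group log2 RPM was read as the mean of the log2 RPM of the libraries. Of the 150 lowest distinct values from 0.4 RPM upwards, 100% were whole products of reads (tolerance 0.04) with the labelled number of libraries, and 18.7 to 20.7% with a wrong number. This recovery was checked on simulated data. Reads per library are RPM times the resulting depth, the smallest that fits. Of the 60 symbols of the wider list, cetn2 and pold4 were in no table. The genes and the list were chosen with earlier results of these data known. Genes of the list were named if called with at least a 2-fold change or if they share a complex with 1 of the 8 genes. Further named genes of the list (xab2, usp7, elof1, ercc5, exo1, pole, rfc2 to rfc5, lig1, lig3, xrcc1 and pcna) and fbxo11a were chosen after their values were seen. Some genes of the list and of the similar patterns are counted but not reported by name here. Python 3.11.15, numpy 2.4.6 and pandas 2.3.3 were used.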

Additional observations from a re-analysis of the deposited data

How the results depend on the processing

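The calls of the 8 genes were the same 2 at 53 mGy/h and the same 2 at 8.7 mGy/h, 1 yr at an FDR of 0.01, and at 0.1 ercc3 joined at 1 yr, for 3. Asking for a 1.5-fold change as well left 1 gene at 53 mGy/h and 1 at 1 yr, ercc6 in each. The wider list had 17 to 24 calls at 53 mGy/h (22 as reported) and 17 to 23 at 1 yr (21) under thresholds of 0.01 and 0.1. All 58 genes had at least 1 RPM on average and were listed in all 3 tables. Limiting the list to such genes therefore removed none and could not change a count. No gene of either list was called at 8.7 mGy/h, 0 yr under any of these settings. Of 24 log2 differences of the 8 genes, a pseudocount of 0.5 RPM or the authors' ratio column moved none beyond its counting interval. The ratio column holds the same ratios of group values, rounded, so it is no separate check. Centring on genes of at least 10 RPM moved 5, and centring on 75 ribosomal protein genes moved 19. Each centring shifts all genes of a comparison by the same amount, so which values moved depends on their read numbers. None of the 4 called values changed sign, and ddb2 at 53 mGy/h came to -0.02 against the ribosomal protein genes. No paired analysis was possible because the tables hold 1 pooled value per group, and for the same reason leaving out single replicates and the count-based alternatives were not run. The depth limits xpa most, with 34.1 to 72.8 reads per library.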
